A study of Mus musculus with 7 samples.

Results

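The transcription factors *Cdx1*, *Cdx2*, *Hnf4a*, *Hnf4g*, *Klf4*, *Klf5*, *Gata4* and *Gata6*, which set and keep the identity of intestinal epithelium, were followed across 7 colon tumors. These are 8 of the 43346 genes in the count table, taken by symbol through their Ensembl identifiers, and no measured value was used to choose them. The tumors came from a mouse model of colitis-associated cancer in which, by design, only the grafted blood system differed. Every mouse was a wild-type recipient that was lethally irradiated and grafted with bone marrow (BM). The labels give recipients as C57BL6/J and 8 wk old, while the methods name a congenic strain at a younger age and put the donor line on C57BL6/J. Tumors were then induced with the carcinogen azoxymethane, injected once at 10 mg/kg, and with dextran sulfate sodium, which injures the colon lining, at 3% in 3 cycles. Recipients of *Dnmt3a*+/Δ BM (4 tumors; Dnmt3a(+/-) in the labels) received marrow lacking 1 allele of the DNA methyltransferase gene *Dnmt3a*, and recipients of *Dnmt3a*+/+ BM (3 tumors) received littermate marrow with both alleles. All donors of both groups carried *Mx1*-Cre, which interferon induces, and were given poly(I:C) before the marrow was taken. The *Dnmt3a* deletion therefore lies in blood cells of the tumor, and the epithelium that makes these factors comes from the wild-type host. The descriptions of the tumors start with BMT18 or BMT8, read here as 2 transplantation experiments, which the labels do not state. Replicates 1 and 2 of each group are from BMT18, and *Dnmt3a*+/+ replicate 3 with *Dnmt3a*+/Δ replicates 3 and 4 from BMT8. The descriptions of *Dnmt3a*+/Δ replicates 2, 3 and 4 also carry an added number, 2, that no other tumor has and that is not explained.

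The caudal homeobox factors CDX1 and CDX2 specify intestine over stomach and esophagus and keep that choice in the adult, where CDX2 loss in colon epithelium lets gastric genes be read. HNF4A and HNF4G are paralogous nuclear receptors that drive enterocyte genes for the brush border and lipid handling. KLF4 is known from differentiated cells of the upper crypt and from goblet cells and KLF5 from dividing crypt cells, and both are also made by stratified squamous epithelium. GATA4 is a factor of the proximal small intestine, while GATA6 is made along the whole gut including the colon.

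Promoter sequence from RefSeq (GRCm38.p6) was at hand for 3 of the 8 genes, *Cdx2*, *Hnf4a* and *Klf4*, and is printed because *Cdx2* lay higher and the other two lower with *Dnmt3a*+/Δ BM in the values given further on. Each run holds the 250 bases before a start annotated by RefSeq, 5′ to 3′ on the strand of the gene. Capitals mark a match, on either strand, to 1 of 5 words: TTTATG for Cdx factors, AGATAA for Gata factors, CAAAGTCCA for Hnf4, CCCACCC for Klf factors and TATAAA for the TATA box.
Cdx2, chr5:147307250-147307499, minus strand: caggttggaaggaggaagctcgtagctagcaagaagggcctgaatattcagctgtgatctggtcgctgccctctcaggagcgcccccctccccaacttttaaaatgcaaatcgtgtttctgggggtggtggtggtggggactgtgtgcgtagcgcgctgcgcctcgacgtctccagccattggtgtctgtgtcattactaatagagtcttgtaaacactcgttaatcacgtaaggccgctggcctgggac
Hnf4a, upstream start, chr2:163506607-163506856, plus strand: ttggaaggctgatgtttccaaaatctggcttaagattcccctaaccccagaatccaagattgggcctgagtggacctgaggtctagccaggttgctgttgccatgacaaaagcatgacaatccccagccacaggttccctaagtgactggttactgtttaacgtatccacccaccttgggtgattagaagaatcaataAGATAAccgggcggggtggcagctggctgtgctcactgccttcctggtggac
Hnf4a, downstream start, chr2:163546905-163547154, plus strand: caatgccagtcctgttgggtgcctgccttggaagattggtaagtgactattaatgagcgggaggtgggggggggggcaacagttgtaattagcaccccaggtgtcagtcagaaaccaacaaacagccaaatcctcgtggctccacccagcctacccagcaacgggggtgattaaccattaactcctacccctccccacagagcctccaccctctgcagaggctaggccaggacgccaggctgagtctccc
Klf4, chr4:55532476-55532725, minus strand: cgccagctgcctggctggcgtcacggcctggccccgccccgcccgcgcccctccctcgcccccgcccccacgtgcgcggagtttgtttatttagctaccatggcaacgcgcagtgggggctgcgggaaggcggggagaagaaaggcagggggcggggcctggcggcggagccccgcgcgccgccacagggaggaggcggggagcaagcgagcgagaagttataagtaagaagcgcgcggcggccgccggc
Of the 4 windows, only the upstream *Hnf4a* window held a match, AGATAA from 52 to 47 bases before the start. Among 32851 RefSeq windows of the same length, 9.99% held AGATAA, 10.8% TTTATG, 0.384% CAAAGTCCA, 15.8% CCCACCC and 12.4% TATAAA on either strand, so the match is a description of the sequence and not of a bound site. The *Klf4* window was 74.0% G and C with 32 CG pairs and the *Cdx2* window 55.2% with 13. The upstream and downstream *Hnf4a* windows were 51.2% and 57.6% with 3 and 4 CG pairs, beside medians of 52.4% and 6 over those 32851 windows.

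Estimated counts summed to between 38472738 and 64314999 per tumor. Levels below are CPM, counts scaled to a common depth with TMM library sizes, differences are log2 fold changes of *Dnmt3a*+/Δ BM over *Dnmt3a*+/+ BM, and p-values measure the spread between tumors, which the labels name biological replicates. Calls required an absolute log2 fold change over 1 and an adjusted p under 0.05. As a check of intestinal origin, *Cdh17*, the cadherin of intestinal epithelium, was at 388 to 640 CPM. The small intestinal sucrase gene *Sis* was at 0 to 0.0312 CPM. Of 11 small intestinal genes, however, 7 were high enough to test, with *Lyz1* at 165 to 559 CPM and *Slc5a1* at 37.0 to 125 CPM. These values therefore do not set colon apart from small intestine. *Dnmt3a* itself was measured in whole tumors and not in the grafted cells, at 20.2 to 24.3 CPM against 22.0 to 43.0 CPM with *Dnmt3a*+/Δ BM. Some tumors stood apart in their cell makeup. The squamous keratin gene *Krt5* was at 5158, 927 and 1368 CPM across *Dnmt3a*+/+ replicates 1 to 3, and across *Dnmt3a*+/Δ replicates 1 to 4 it was at 5963, 0.0815, 1218 and 1487 CPM. The squamous regulator *Trp63* followed the same order at its ends, from 144 and 196 CPM in the replicates numbered 1 down to 0.0204 CPM in *Dnmt3a*+/Δ replicate 2. *Krt14* and *Krt13* were also lowest in that tumor but still present, at 149 and 46.7 CPM against at least 1247 and 1251 CPM in the others. RNA of squamous epithelium, which lines the anal canal next to the colon, was thus highest in replicate 1 of each group and lowest in *Dnmt3a*+/Δ replicate 2. *Dnmt3a*+/+ replicate 3 had almost none of the muscle gene *Myh11*, 0.734 CPM against 26.3 to 297 in the other tumors.

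*Cdx1* was lower in every tumor with *Dnmt3a*+/Δ BM than in any tumor with *Dnmt3a*+/+ BM, and the fitted difference was 2.21-fold. The gene (ENSMUSG00000024619) lies on chromosome 18 of GRCm38 from 61018862 to 61036199 on the minus strand. It was at 224, 291 and 246 CPM across *Dnmt3a*+/+ replicates 1 to 3, against 116, 63.5, 147 and 132 CPM across *Dnmt3a*+/Δ replicates 1 to 4. The groups did not overlap, with *Dnmt3a*+/Δ replicate 2 lowest. Mean levels were 254 ± 34.4 (SD, n = 3) and 115 ± 36.4 CPM (SD, n = 4), and the exact permutation test gave a two-sided p of 0.0286, the smallest it can give with 4 tumors against 3. The log2 fold change was -1.15 (standard error 0.28, 95% interval -1.80 to -0.50) and edgeR's quasi-likelihood test, which called 0% of 15810 genes, put its adjusted p at 0.361. DESeq2, the tool the study's methods name, gave an adjusted p of 0.0324 and called *Cdx1* lower, as it did 0.355% of genes. That call held without *Dnmt3a*+/Δ replicate 1 (adjusted p = 0.0444) and without *Dnmt3a*+/Δ replicate 3 (adjusted p = 0.0334). Without both replicates numbered 1, edgeR's log2 fold change was -1.22. The DESeq2 call was lost without *Dnmt3a*+/Δ replicate 2, by its log2 fold change of -0.94 alone (adjusted p = 0.0128), and without *Dnmt3a*+/+ replicates 1, 2 or 3 or *Dnmt3a*+/Δ replicate 4 (adjusted p = 0.0808, 0.353, 0.072 and 0.0536). In whole tumors, fewer epithelial cells and less RNA of a gene per epithelial cell cannot be told apart.

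*Cdx2* went the other way. It lies on chromosome 5 from 147300805 to 147307270 on the minus strand (ENSMUSG00000029646) and was at 10.6, 9.40 and 11.2 CPM across *Dnmt3a*+/+ replicates 1 to 3. In *Dnmt3a*+/Δ replicates 1 to 4 it was at 10.2, 21.4, 17.6 and 22.8 CPM. Replicates 2, 3 and 4 lay above every *Dnmt3a*+/+ tumor, while replicate 1 lay among them, so the groups overlapped, and the two-sided exact permutation test gave 0.114. Those higher tumors are the ones whose descriptions carry the added number, and its part was not tested. edgeR gave it a log2 fold change of 0.79 (standard error 0.29, 95% interval 0.11 to 1.47), with an unadjusted p of 0.0287 that became 0.42 when adjusted, and DESeq2's adjusted p was 0.196. Without *Dnmt3a*+/Δ replicate 1, DESeq2 gave an adjusted p of 0.00203 at a log2 fold change of 0.988, just under the fold threshold, and edgeR gave 1.00. The counts behind these levels were 366 to 602 per tumor with *Dnmt3a*+/+ BM, well above the floor of 3 counts.

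Because *Cdx1* and *Cdx2* stood in opposite order, their ratio within a tumor separated the groups further than either gene, and needs no scaling between libraries. *Cdx2* counts were 4.75%, 3.23% and 4.55% of *Cdx1* counts across *Dnmt3a*+/+ replicates 1 to 3. They were 8.83%, 33.8%, 11.9% and 17.2% in *Dnmt3a*+/Δ replicates 1 to 4. The mean log2 ratio was -4.60 ± 0.31 (SD, n = 3) against -2.67 ± 0.83 (SD, n = 4). The ratio was picked after each gene's values were known and carries no test.

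**Figure D1:**
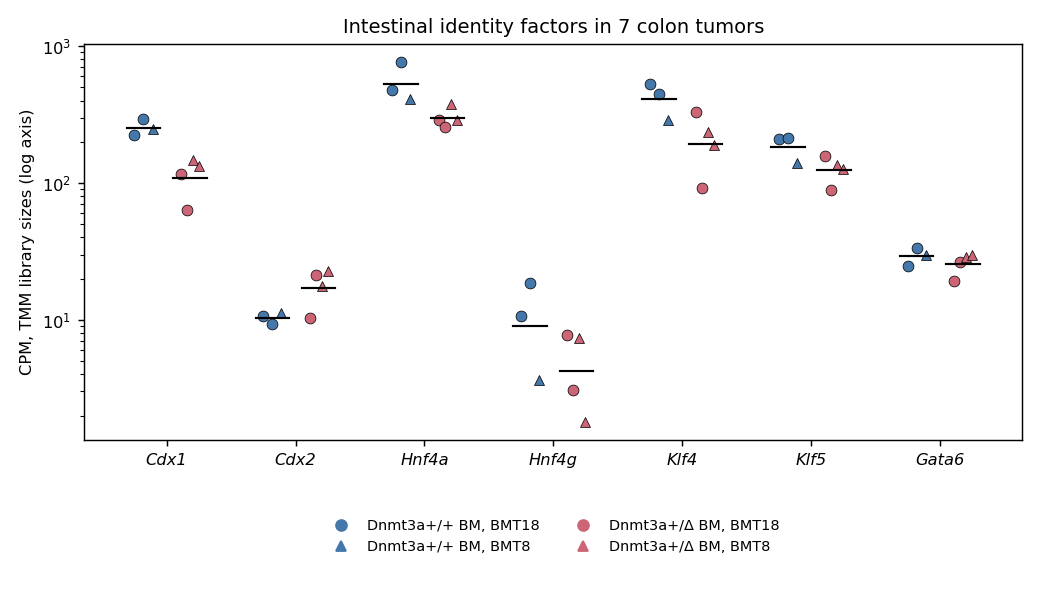
CPM of 7 factors in each tumor on a log axis (*Gata4*, at 0 to 4 counts, is left out). Points are single tumors, circles from BMT18 and triangles from BMT8, and bars are geometric means of the group. *Cdx1* and *Hnf4a* do not overlap between groups, and *Cdx2* is the factor with the higher mean with *Dnmt3a*+/Δ BM.

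*Hnf4a* was the second factor without overlap between groups, lower with *Dnmt3a*+/Δ BM by 1.82-fold. It spans chromosome 2 from 163506808 to 163572910 on the plus strand (ENSMUSG00000017950). It was at 479, 765 and 412 CPM across *Dnmt3a*+/+ replicates 1 to 3, against 290, 255, 378 and 291 CPM across *Dnmt3a*+/Δ replicates 1 to 4 without overlap, and the two-sided exact permutation test gave 0.0286. The gap was narrow, from 378 to 412 CPM, and *Dnmt3a*+/+ replicate 2 alone was far above the others. The log2 fold change was -0.86 (standard error 0.25, 95% interval -1.45 to -0.28), and its unadjusted p of 0.00953 became 0.377 when adjusted in edgeR, and DESeq2's adjusted p was 0.116. Without *Dnmt3a*+/+ replicate 2 it was -0.56. Without *Dnmt3a*+/+ replicate 3, DESeq2 called it, at -1.02 with an adjusted p of 0.0385. The antisense gene *Hnf4aos*, which overlaps it, had 0 to 3 counts per tumor, at most 0.00612% of the *Hnf4a* counts.

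Its paralog *Hnf4g*, on chromosome 3 from 3508030 to 3658052 on the plus strand (ENSMUSG00000017688), varied more than any other factor tested. It was at 10.7, 18.5 and 3.64 CPM across *Dnmt3a*+/+ replicates 1 to 3, against 7.79, 3.10, 7.33 and 1.78 CPM across *Dnmt3a*+/Δ replicates 1 to 4, a range of 10.4-fold. The groups overlapped widely. The log2 fold change of -1.13 (standard error 0.66, 95% interval -2.67 to 0.40) had an adjusted p of 0.557 from edgeR and moved to -0.53 without *Dnmt3a*+/+ replicate 2. *Hnf4g* counts were 0.884% to 2.42% of *Hnf4a* counts with *Dnmt3a*+/+ BM and 0.614% to 2.68% with *Dnmt3a*+/Δ BM, so the proportions of the paralogs overlapped between groups.

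*Klf4* was lower on average with *Dnmt3a*+/Δ BM by 1.99-fold, but the groups overlapped. It lies on chromosome 4 from 55527143 to 55532466 on the minus strand (ENSMUSG00000003032) and was at 530, 447 and 287 CPM across *Dnmt3a*+/+ replicates 1 to 3. In *Dnmt3a*+/Δ replicates 1 to 4 it was at 329, 91.8, 236 and 189 CPM. Its log2 fold change was -0.99 (standard error 0.41, 95% interval -1.95 to -0.04), with an unadjusted p of 0.0426 and an adjusted p of 0.437 from edgeR. *Klf4* was highest within each group in replicate 1, which also had the most *Krt5* of its group, and lowest in *Dnmt3a*+/Δ replicate 2, which had almost none. The part of squamous tissue in its level was not tested. DESeq2's adjusted p was 0.288. Without *Dnmt3a*+/Δ replicate 1, DESeq2 called it lower, at -1.29 with an adjusted p of 0.0492. In edgeR, its log2 fold change was -1.07 without both replicates numbered 1 and -0.72 without *Dnmt3a*+/Δ replicate 2.

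*Klf5*, on chromosome 14 from 99298691 to 99315036 on the plus strand (ENSMUSG00000005148), showed a smaller difference in the same direction. It was at 208, 213 and 140 CPM across *Dnmt3a*+/+ replicates 1 to 3, against 159, 89.3, 135 and 126 CPM across *Dnmt3a*+/Δ replicates 1 to 4. Only 1 tumor crossed, since *Dnmt3a*+/Δ replicate 1 lay above *Dnmt3a*+/+ replicate 3. Its log2 fold change was -0.56 (standard error 0.24, 95% interval -1.11 to -0.005), with an unadjusted p of 0.0483 and an adjusted p of 0.45 from edgeR. Among *Dnmt3a*+/Δ tumors *Klf5* was highest in replicate 1, which had the most *Krt5* of that group. Among *Dnmt3a*+/+ tumors *Klf5* was highest in replicate 2, which had the least *Krt5* of that group, 927 CPM. Without both replicates numbered 1 its log2 fold change was -0.58, and without *Dnmt3a*+/Δ replicate 2 it was -0.39. *Klf4* counts were 205% to 255% of *Klf5* counts with *Dnmt3a*+/+ BM and 103% to 208% with *Dnmt3a*+/Δ BM, with *Dnmt3a*+/Δ replicate 2 at the low end.

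*Gata6* was the steadiest factor. It lies on chromosome 18 from 11052064 to 11085635 on the plus strand (ENSMUSG00000005836) and was at 24.9, 33.5 and 29.9 CPM across *Dnmt3a*+/+ replicates 1 to 3. In *Dnmt3a*+/Δ replicates 1 to 4 it was at 19.4, 26.4, 28.7 and 29.8 CPM. The highest and lowest tumors differed by 1.73-fold and the groups overlapped. Its difference on the log2 scale was -0.17 (standard error 0.20, 95% interval -0.64 to 0.29, edgeR adjusted p = 0.79), and it was 0.036 when libraries were scaled by their totals only. The overlapping antisense gene *1010001N08Rik* had 2.16% to 6.26% of the *Gata6* counts. *Gata4* had 1, 4 and 0 counts across *Dnmt3a*+/+ replicates 1 to 3, and 0, 2, 2 and 1 across *Dnmt3a*+/Δ replicates 1 to 4. It was too low to be tested, and 0 counts allow up to 3 counts, 0.0749 to 0.0918 CPM in the 2 tumors concerned.

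Levels of different genes were compared per kilobase of merged exons. With *Dnmt3a*+/+ BM, *Cdx1* (145 ± 19.7 CPM per kilobase), *Klf4* (138 ± 40.4) and *Hnf4a* (114 ± 38.9) formed the top and did not differ beyond their spread. *Klf5* followed at 35.99 ± 7.83. *Cdx2* (4.61 ± 0.41), *Gata6* (4.52 ± 0.66) and *Hnf4g* (4.17 ± 2.83) formed a low tier within their spread of one another, and *Gata4* was at 0.00763 (all SD, n = 3). With *Dnmt3a*+/Δ BM, *Klf4* (69.4 ± 32.5), *Cdx1* (65.5 ± 20.8) and *Hnf4a* (62.9 ± 10.8) were again within their spread of one another at the top. *Klf5* was at 24.5 ± 5.54, *Cdx2* at 7.96 ± 2.49, *Gata6* at 4.01 ± 0.72 and *Hnf4g* at 1.90 ± 1.14 (all SD, n = 4). In this group *Cdx2*, *Gata6* and *Hnf4g* each lay apart from the next by more than their SDs together. *Cdx1* exceeded *Cdx2* per kilobase in every tumor.

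Of the 7 factors tested, 6 were lower and 1 higher with *Dnmt3a*+/Δ BM. Their median log2 fold change was -0.86, beside 0.003 over all genes tested. At an unadjusted p under 0.05 from edgeR, 4 were lower (*Cdx1*, *Hnf4a*, *Klf4*, *Klf5*), where 5.2% of all genes were, and 1 was higher (*Cdx2*), where 5.83% were. Groups did not overlap for 2 lower factors, beside 6.32% of all genes, and for 0 higher ones, beside 6.12%. DESeq2 called 1 of the 7 lower, where it called 0.355% of all genes lower, and 0 higher, where it called 1.51% higher. The count of 5 factors at an unadjusted p under 0.05 was 4 without both replicates numbered 1, 3 without *Dnmt3a*+/Δ replicate 2 and with library totals only, and 2 without *Dnmt3a*+/+ replicate 1, *Dnmt3a*+/+ replicate 2, *Dnmt3a*+/Δ replicate 3 or *Dnmt3a*+/Δ replicate 4. Without *Dnmt3a*+/+ replicate 3, groups did not overlap for 5 lower factors, where 14.6% of all genes were lower without overlap. Without *Dnmt3a*+/Δ replicate 1, they did not overlap for *Cdx1*, *Hnf4a* and *Klf4*, lower, and *Cdx2*, higher, where 9.72% and 11.5% of all genes did not. *Klf5* joined them on the CPM printed above, but not after the TMM factors were computed anew for the 6 tumors.

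Within experiments, the 7 tested factors kept their signs, with sizes that varied. For *Hnf4g* and *Gata6* the BMT8 differences of -0.004 and -0.03 were too small to give a direction. In BMT18, the difference in mean log2 CPM was -1.57 for *Cdx1*, 0.57 for *Cdx2*, -1.15 for *Hnf4a*, -1.51 for *Hnf4g*, -1.49 for *Klf4*, -0.82 for *Klf5* and -0.35 for *Gata6*. In BMT8, whose *Dnmt3a*+/+ group is 1 tumor, these differences were -0.82, 0.83, -0.31, -0.004, -0.44, -0.10 and -0.03. *Cdx1*, *Hnf4a*, *Klf4* and *Klf5* thus lay below their controls in both experiments, while *Hnf4g* differed almost wholly in BMT18. The test of the difference between experiments, edgeR's interaction term, had unadjusted p-values of 0.11 for *Hnf4a*, 0.223 for both *Cdx1* and *Hnf4g* and 0.776 for *Cdx2* and called 0 genes.

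To compare the factors per unit of epithelial RNA, they were also set against 12 pan-epithelial genes such as *Epcam*, *Cdh1* and *Krt8*, some of which squamous epithelium also makes. Those genes had a mean log2 CPM of 9.34 ± 0.25 (SD, n = 3) with *Dnmt3a*+/+ BM and 8.91 ± 0.31 (SD, n = 4) with *Dnmt3a*+/Δ BM, a difference of -0.44 (exact permutation test, two-sided p = 0.114). All 12 had negative log2 fold changes. Relative to these genes, *Cdx1* was at 41.1%, 44.9% and 31.9% of their geometric mean across *Dnmt3a*+/+ replicates 1 to 3, against 24.7%, 17.7%, 27.9% and 22.1% across *Dnmt3a*+/Δ replicates 1 to 4. *Cdx2* was at 1.95%, 1.45% and 1.45% against 2.18%, 5.97%, 3.33% and 3.81%. On this scale neither Cdx gene overlapped between groups, though the gap of *Cdx2* was narrow, from 1.95% to 2.18%. The share of all genes without overlap on this scale is not given here. *Cdx2* was 2.37-fold higher and *Cdx1* 1.70-fold lower with *Dnmt3a*+/Δ BM, where 13398 of 15810 genes were higher.

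Refitted on that scale, edgeR gave a log2 fold change of -0.77 (standard error 0.22, 95% interval -1.27 to -0.26) for *Cdx1*, with an unadjusted p of 0.00824, where 0.563% of all genes were lower at an unadjusted p under 0.05. For *Cdx2* it gave 1.24 (standard error 0.38, 95% interval 0.38 to 2.11), with an unadjusted p of 0.0104, where 16.9% of all genes were higher at an unadjusted p under 0.05. The two-sided exact permutation test on the log2 ratio to the pan-epithelial mean gave 0.0286 for *Cdx1* and 0.0571 for *Cdx2*. This scaling put the median of all genes at 0.44. The adjusted p was 0.276 for both, and 0% of genes were called. The other factors were at -0.45 for *Hnf4a*, -0.74 for *Hnf4g*, -0.65 for *Klf4*, -0.17 for *Klf5* and 0.27 for *Gata6*, none with an unadjusted p under 0.05. Leaving out 1 tumor moved each of these. *Klf5* turned to 0.048 and *Klf4* went to -0.30 without *Dnmt3a*+/+ replicate 1, *Hnf4a* went to -0.16 and *Hnf4g* to -0.21 without *Dnmt3a*+/+ replicate 2, and *Gata6* went to 0.10 without *Dnmt3a*+/Δ replicate 2. With *Krt8* and *Krt18* alone as the scale, *Cdx1* was at -0.87 and *Cdx2* at 1.10, with unadjusted p-values of 0.0699 and 0.0694. Without both replicates numbered 1, *Cdx1* was at -0.77 and *Cdx2* at 1.59.

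**Figure D2:**
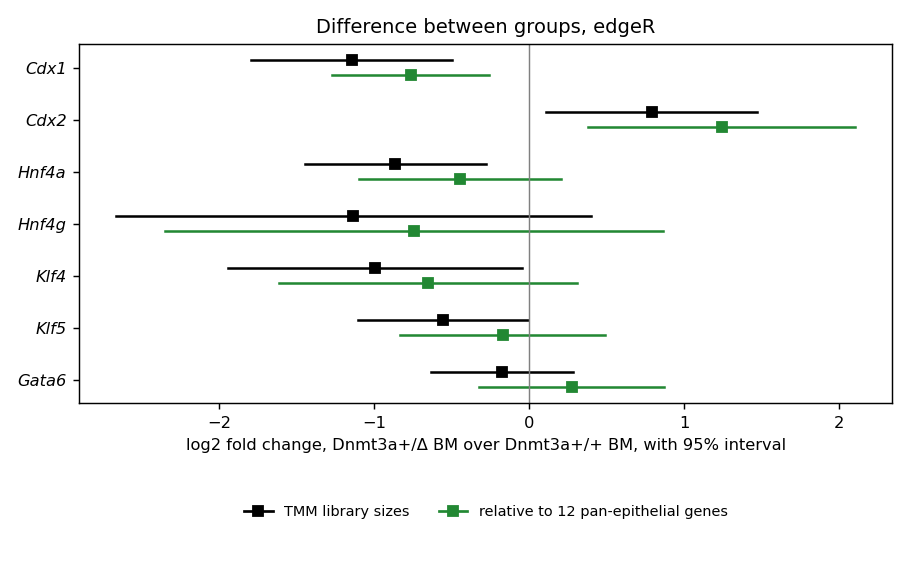
Log2 fold change of each tested factor (x axis) from edgeR, squares with bars for the 95% interval, on TMM library sizes (black) and relative to 12 pan-epithelial genes (green). The intervals of *Cdx1* and *Cdx2* exclude 0 on both scales, on opposite sides, before adjustment over 15810 genes, and those of *Hnf4a*, *Klf4* and *Klf5* do so on TMM library sizes only.

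**Figure D3:**
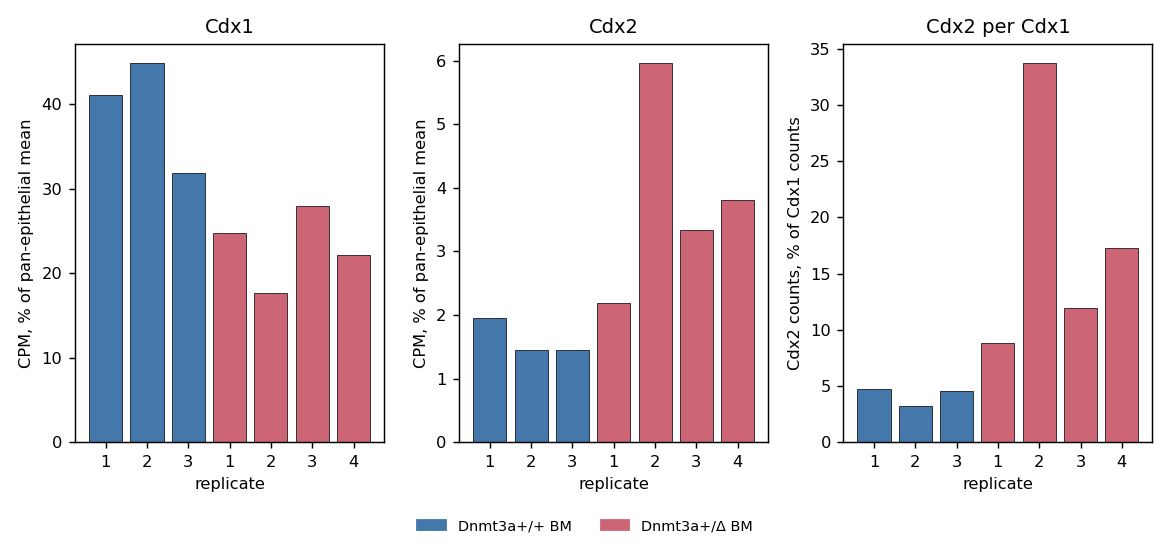
Bars for each tumor of *Cdx1* and *Cdx2* CPM as a percentage of the geometric mean of 12 pan-epithelial genes, and of *Cdx2* counts as a percentage of *Cdx1* counts. The *Cdx2* per *Cdx1* bars run from 3.23% to 4.75% with *Dnmt3a*+/+ BM and from 8.83% to 33.8% with *Dnmt3a*+/Δ BM.

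Of the markers of other cell types, those of endothelium differed most between the groups. With *Dnmt3a*+/Δ BM all 6 endothelial genes were higher, by a median log2 fold change of 1.74. At an unadjusted p under 0.05 from edgeR, 5 were higher, beside 5.83% of all genes. DESeq2 called 3 higher, beside 1.51% of all genes, and the groups did not overlap for 3, beside 6.12%. The endothelial sum was 11.6 to 24.4 CPM with *Dnmt3a*+/+ BM against 23.3 to 118 CPM. All 6 fibroblast genes were higher, with a median of 1.09 (0.24 without *Dnmt3a*+/Δ replicate 2) and sums of 149 to 295 against 223 to 993 CPM. Of these, 1 had an unadjusted p under 0.05, beside the same 5.83% of all genes. Of 6 leukocyte genes, 5 were higher, with sums of 19.6 to 43.4 against 17.8 to 94.4 CPM. Smooth muscle genes split 3 and 3, with sums of 18.4 to 595 against 175 to 861 CPM, and no gene of the leukocyte or muscle lists had an unadjusted p under 0.05. The mesothelial sum, almost all *Msln*, was 3.60 to 53.3 against 13.3 to 112 CPM with *Wt1* at 0 in all tumors, and the sum of enteric glia and neuron genes was at most 1.33 CPM. Tumor by tumor, *Dnmt3a*+/Δ replicate 2 had the most endothelial and fibroblast RNA, the lowest pan-epithelial mean and the lowest *Cdx1*, *Hnf4a*, *Klf4* and *Klf5*. The part of cell makeup in the factors' levels was not tested beyond the pan-epithelial scale above.

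**Figure D4:**
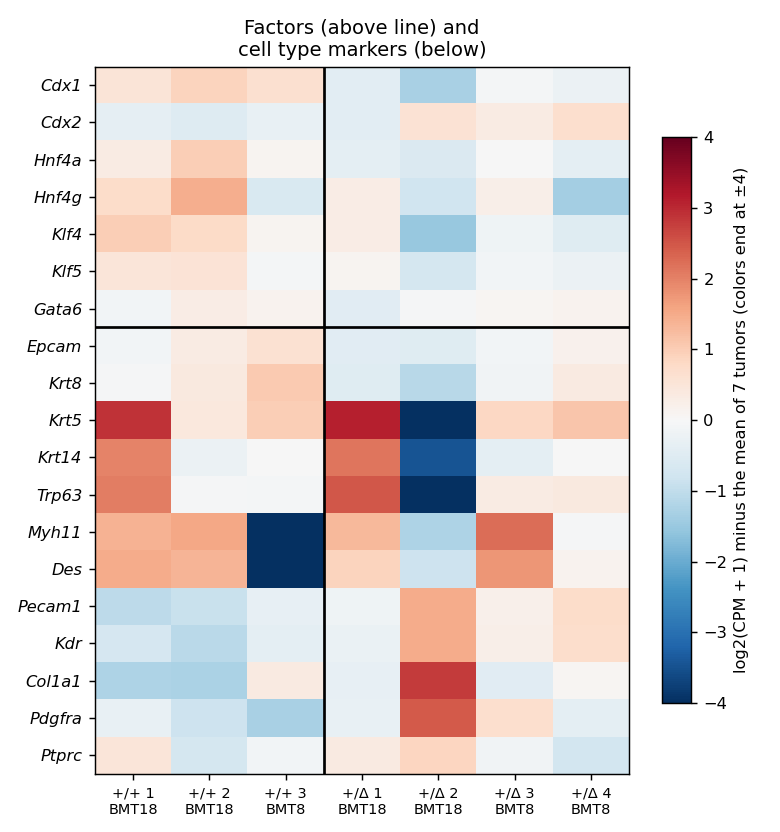
Log2(CPM + 1) of each gene minus its mean over the 7 tumors, red above and blue below, for 7 factors above the line and 12 markers below it: *Epcam* and *Krt8* for epithelium, *Krt5*, *Krt14* and *Trp63* squamous, *Myh11* and *Des* muscle, *Pecam1* and *Kdr* endothelium, *Col1a1* and *Pdgfra* fibroblasts, *Ptprc* leukocytes. *Dnmt3a*+/Δ replicate 2 is lowest in the 3 squamous markers, with *Krt14* still at 149 CPM, and *Dnmt3a*+/+ replicate 3 is lowest in *Myh11*.

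Other transcription factors of the intestinal epithelium did not share 1 direction. Of 20, all tested, 8 were higher and 12 lower, at a median log2 fold change of -0.20, and 0.01 with library totals only. At an unadjusted p under 0.05, 1 was higher and 3 were lower, beside 5.83% and 5.2% of all genes. *Onecut2*, a factor of foregut and duodenal development, was at 0.752, 3.59 and 1.38 CPM across *Dnmt3a*+/+ replicates 1 to 3. It was at 9.21, 22.4, 8.94 and 15.9 CPM in *Dnmt3a*+/Δ replicates 1 to 4, without overlap. At a log2 fold change of 2.87 (standard error 0.63), its adjusted p was 0.361 by edgeR and 0.000338 by DESeq2, which called it higher with all tumors and in each of the 7 fits that left out 1 tumor. *Creb3l3*, a lipid-handling factor of enterocytes and liver, was lower at -1.25 and called by DESeq2 (adjusted p = 0.0463). That call held in 2 of the 7 such fits, and its log2 fold change was -0.83 without *Dnmt3a*+/+ replicate 1. *Nr1i2*, the pregnane X receptor, had -0.83 and *Elf3*, an epithelial ETS factor, had -0.38. Groups did not overlap for 2 lower factors, *Creb3l3* and *Elf3*, beside 6.32% of all genes, and for 1 higher, *Onecut2*, beside 6.12%. Of the most abundant others, *Ehf* was at -0.07, *Foxa1* at 0.009, *Sox9* at 0.55 and *Vdr*, the vitamin D receptor, at -0.97, and the groups overlapped for each.

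The remaining genes of the Cdx, Gata and Klf families had a median log2 fold change of 0.02 over 15 of 20 tested, with 8 higher and 7 lower. That median ran from -0.26 to 0.22 over the alternatives. *Cdx4* had 0 counts in every tumor, so the Cdx family was represented by the 2 members alone. *Gata2*, a blood and endothelial factor, was at 0.645, 0.687 and 0.122 CPM against 0.624, 6.03, 3.29 and 2.27 CPM, overlapping through *Dnmt3a*+/Δ replicate 1. Its log2 fold change of 2.63 was called by DESeq2 (adjusted p = 0.0357), a call kept in 1 of 7 fits that left out a tumor, and it was 2.11 without *Dnmt3a*+/Δ replicate 2. *Klf15* had 1.45 at levels under 2.2 CPM. *Gata5*, the third Gata gene of gut epithelium, was at 9.19 to 32.2 CPM against 12.03 to 34.7 CPM, a log2 fold change of -0.04. *Klf6*, the most abundant Klf gene outside the members, had -0.51 without overlap and an unadjusted p of 0.0595.

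Genes known as targets of Cdx factors were mostly lower. Of 18, *Sis* and *Lct* were too low to test, and of the other 16, 15 were lower and 1 higher, at a median log2 fold change of -0.60 (-0.39 with library totals only). At an unadjusted p under 0.05, 6 were lower and 0 higher, beside 5.2% and 5.83% of all genes, and DESeq2 called 0. *Heph*, the basolateral ferroxidase that lets iron leave enterocytes, was at 76.4 to 90.1 CPM against 45.0 to 64.5 CPM, at -0.62. *Lgals4*, an epithelial galectin, was at 3875 to 6058 CPM against 1253 to 3687 CPM, at -0.96, and *Cdh17*, the intestinal cadherin, was at 486 to 640 against 388 to 481 CPM, at -0.40. These 3 did not overlap between groups, beside 6.32% of all genes that were lower without overlap. *Mep1a* (-1.48), *Tff3* (-1.18) and *Guca2a* (-0.67) did overlap. Of the more abundant others, *Krt20* was at -0.58, *Vil1* at -0.56, *Muc2* at -0.03 and *Car1* at -0.71. *Isx*, a homeobox gene that CDX2 is known to activate, was the single one with a positive value, 0.95, at 4.16 to 11.0 CPM against 5.74 to 22.7 CPM, and its groups overlapped.

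Genes known as targets of HNF4 were lower without exception among the 14 tested of 18, with a median log2 fold change of -0.68 (-0.48 with library totals only). The median was -0.44 in DESeq2 and -0.45 with no filter on low counts, fits that also take in the genes too low to test here. At an unadjusted p under 0.05, 6 were lower, beside 5.2% of all genes. The groups did not overlap for 5, *Mep1b*, *Cdhr2*, *Cdhr5*, *Anks4b* and *Espn*, beside 6.32% of all genes that were lower without overlap. *Mep1b*, which encodes the beta subunit of the brush border protease meprin, was at 69.6, 65.4 and 62.0 CPM across *Dnmt3a*+/+ replicates 1 to 3. In *Dnmt3a*+/Δ replicates 1 to 4 it was at 31.1, 27.3, 26.5 and 16.2 CPM. It differed by a log2 fold change of -1.38 (standard error 0.22). Its adjusted p was 0.361 by edgeR and 0.000651 by DESeq2, a call kept in each of the 7 fits that left out 1 tumor. The other 4 belong to the brush border: *Cdhr2* (-0.84) and *Cdhr5* (-0.94) encode the protocadherins that link microvilli, *Anks4b* (-0.86) a scaffold of that link and *Espn* (-0.81) an actin bundler. *Ush1c* (-0.55) and *Myo7b* (-0.08), of the same complex, overlapped between groups. Of the fatty acid and lipoprotein genes, *Acsl5* was at -0.12, *Mttp* at -0.12 and *Apob* at -1.05 (standard error 0.88), all with overlap, and *Apoa1*, *Apoa4*, *Apoc3* and *Fabp1* too low to test.

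Relative to the pan-epithelial genes, the median of the Cdx targets was -0.17 and that of the HNF4 targets -0.28, where the median of all genes was 0.44. On that scale 5 Cdx targets were higher and 11 lower, and 5 HNF4 targets higher and 9 lower, with *Mep1b* at -0.90 and *Cdhr2* at -0.41. At an unadjusted p under 0.05 there, 1 gene of each list was lower, beside 0.563% of all genes, and 1 Cdx target was higher, beside 16.9%. On TMM library sizes the 12 pan-epithelial genes were themselves all lower. Of these, 2 had an unadjusted p under 0.05, beside 5.2% of all genes lower on that scale. The groups did not overlap for 3, beside 6.32%. The 2 target lists were written from background knowledge with earlier results of these tumors known, they share *Mep1a*, and they carry no test of their own.

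**Figure D5:**
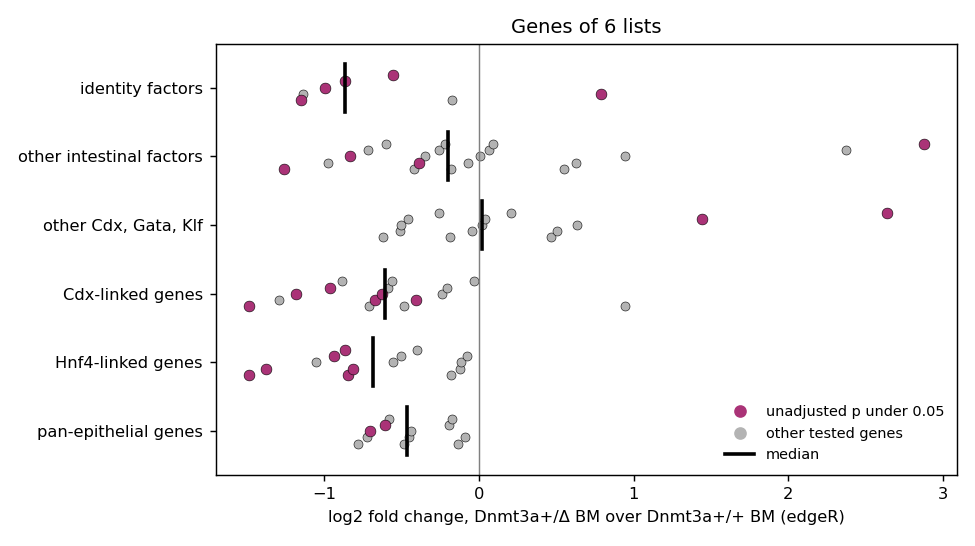
Log2 fold changes from edgeR (x axis) of the tested genes in 6 lists, with 1 point per gene, colored where the unadjusted p was under 0.05, and a bar at the median. The medians are -0.86 for the identity factors, -0.20 for other intestinal factors, 0.02 for other Cdx, Gata and Klf genes, -0.60 for Cdx targets, -0.68 for HNF4 targets and -0.47 for pan-epithelial genes.

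Genes of neighboring gut regions were then examined, since CDX and GATA factors separate colon from foregut and small intestine. Of 16 gastric and squamous genes that colon epithelium normally lacks, 10 were tested, 5 higher and 5 lower. Their median log2 fold change of -0.05 was -0.68 when *Dnmt3a*+/Δ replicate 1 was left out and 0.78 when *Dnmt3a*+/+ replicate 1 was. The list holds the squamous genes *Krt5*, *Krt13*, *Krt14* and *Trp63*, which were highest in both of those tumors, so its median does not stand for gastric genes alone. *Muc6*, the gland mucin of stomach and duodenum, was at 0.457, 0.640 and 1.65 CPM against 1.67, 6.34, 13.2 and 5.73 CPM. For its log2 fold change of 2.88 (standard error 0.79), the adjusted p was 0.361 by edgeR and 0.0037 by DESeq2, which lost the call without *Dnmt3a*+/+ replicate 2. The groups met at 1.65 and 1.67 CPM without crossing. Gastric surface genes were near 0, with *Gkn2* at 0 counts in every tumor and *Muc5ac*, *Tff1* and *Tff2* too low to test. *Krt7* had -0.19, and the squamous genes *Krt5*, *Krt13* and *Krt14* had -0.20, -0.53 and -0.33 with standard errors of 1.10 to 1.81. Of 11 small intestinal genes, 7 were tested, 6 lower and 1 higher, with a median of -0.49 and none at an unadjusted p under 0.05. *Lyz1* was at 209 to 559 against 165 to 365 CPM and *Slc5a1* at 103 to 125 against 37.0 to 103 CPM.

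For each tested factor, the genes with the most similar profile over the 7 tumors were found by the root mean square distance between centred log2 CPM values. They were *Hsd17b2*, *Hottip* and *Pla2g10* for *Cdx1*, at distances of 0.10 to 0.12. For *Cdx2* they were *Idua*, *Mest* and *B230206L02Rik*, at 0.086 to 0.135, the last at a mean of 0.244 CPM. For *Hnf4a* they were *Tmem8*, *Ppp1r3b* and *Tmem220*, and for *Hnf4g* they were *B4galnt3*, *Hmcn1* and *Naaladl1*, the latter at 0.174 to 0.247. For *Klf4* they were *Rhbdl2*, *Pof1b* and *Sgk2*, for *Klf5* *Acadm*, *Prss8* and *Tbc1d22a*, and for *Gata6* *Slc50a1*, *Tmem98* and *Mtrf1*. *Prss8* is also 1 of the 12 pan-epithelial genes. Among the factors themselves, *Hnf4a* and *Klf5* were the closest pair, at 0.292, followed by *Cdx1* and *Hnf4a* at 0.357 and *Klf4* and *Klf5* at 0.397. *Cdx2* lay 1.11 from *Cdx1* and 1.49 from *Hnf4g*, and its closest factor was *Gata6* at 0.515.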

How the data were processed

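RNA of 7 whole colon tumors was selected for poly(A), prepared with a directional kit and sequenced. Trimmomatic, FastQC, STAR, RSEM and DESeq2 are named in the submitters' processing notes, with mm10 as the build, and the annotation release and the strand setting are not given in the sources used here. Where strand was not used, reads of overlapping antisense genes cannot be told apart. The deposited values are the authors' expected counts per gene from RSEM, all whole numbers and not normalized. Rows without a symbol held 0.104% of the counts. Positions and exon lengths are from GENCODE M21.

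edgeR 4.0.16 in R 4.3.3 was run over the 15810 genes that filterByExpr kept at a minimum count of 10, with TMM scaling, no covariate, the quasi-likelihood test and p-values adjusted after Benjamini and Hochberg. The same fit was repeated with the geometric mean of 12 pan-epithelial genes as library size, and with an interaction term for the experiment. DESeq2 1.42.0 was an alternative. Other alternatives were other scalings and filters, robust dispersion, the experiment as a covariate, a replicate block, BMT18 alone and each tumor left out. DESeq2 with the experiment or without each tumor, edgeR without both replicates numbered 1, and overlap with 1 tumor left out on the CPM of all 7 tumors were chosen after seeing the data. Standard errors are the fold change over the root of F. Intervals are at 95%. Exact permutation tests used the 35 splits of the tumors, two-sided, and the floor of 3 counts covers counting error only. Scripts were tested on simulated data. Depth was 38472738 to 64314999 counts.

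Genes named are the 8 members, *Dnmt3a*, list genes at an unadjusted p under 0.05, up to 4 further of each list by mean CPM and the 3 nearest profiles of each member. Others named for their function were chosen after their values were seen. The value of 1 list gene is not reported here, though it is counted in its list. The members and lists were chosen with earlier results of these data known. Protein sequences and promoters of the other 5 members were not used here.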

Additional observations from a re-analysis of the deposited data

Results flagged for a closer look

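The summed level of 6 fibroblast genes was 993.1 CPM in *Dnmt3a*+/Δ replicate 2, far from 223 to 355 CPM in the other 3 tumors of its group by Dixon's test. It was the 1 value that stood apart in this way of 28 examined in the group of 4, the factors and the marker sums among them, where chance gives about 1 in 20 groups. No factor had a tumor that stood apart by this test. The same tumor had the lowest *Cdx1*, *Hnf4a*, *Klf4* and *Klf5* of the 7, and without it the log2 fold changes of these factors were -0.92, -0.76, -0.72 and -0.39. *Cdx2* was at 0.73 without it.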

How the results depend on the processing

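The directions of *Cdx1*, *Cdx2*, *Hnf4a*, *Hnf4g*, *Klf4* and *Klf5* on TMM library sizes were kept under every alternative run, and edgeR called 0 genes under each. *Gata6* turned to 0.036 with library totals only, a scaling that moved the median of all genes to 0.21, and *Klf5* relative to pan-epithelial genes turned to 0.048 without *Dnmt3a*+/+ replicate 1. DESeq2 called 300 genes, and 485 with the experiment as a covariate, where *Cdx1* was at -1.24 (adjusted p = 0.00456) after -1.14 without it. With 1 tumor left out, DESeq2 called 63 to 697 genes. Over both tools, leaving out 1 tumor put *Cdx1* between -1.29 and -0.92, *Hnf4a* between -1.04 and -0.53 and *Klf4* between -1.29 and -0.72. The same fits in edgeR had 883 to 2143 genes at an unadjusted p under 0.05. Relative to pan-epithelial genes, a scale fitted in edgeR only, *Klf5* lay between -0.43 and 0.048 with 1 tumor left out. The cause of these changes was not tested, except that fewer tumors entered. Of the 5 members at an unadjusted p under 0.05, 3 were left with library totals only, 3 with the experiment as a covariate, 2 in BMT18 alone and 2 to 5 with 1 tumor left out. Member groups without overlap numbered 2 to 5 with 1 tumor left out, where 6.19% to 14.6% of all genes were lower and 7.3% to 13.1% higher without overlap. The count of 5 came without *Dnmt3a*+/+ replicate 3, where the share of lower genes was 14.6%.

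Same-numbered tumors came from the same experiment, but each experiment holds several numbers, and the deviations of the pairs from the group means correlated at 0.568, 0.071 and -0.038. Since 2 of the 3 pairs were under 0.1, the numbers were not taken to pair the tumors. With a replicate block, which drops *Dnmt3a*+/Δ replicate 4, 1 member, *Cdx1* at -1.29, had an unadjusted p under 0.05. Not every sample correlated best with its own number.

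Depth limits only *Gata4*. With 3 tumors against 4, the spread between tumors limits the rest, and a difference in cell makeup between whole tumors cannot be told apart from one per cell.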
